A study of Rattus norvegicus with 8 samples.

Results

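The inflammatory cytokines Il6, Il1a, Il1b, Tnf, Il10 and Il18 were examined in rat whole blood. They were chosen by gene symbol, as the probe sets whose annotation gives exactly 1 symbol equal to one of these names. This gave 8 probe sets for 6 of the 14217 genes named on the array, and no probe set listed any of them among several symbols. Il6, Il1b, Il10 and Il18 had 1 probe set each, and Il1a and Tnf had 2, called here the brighter and the dimmer probe set of the gene. The high-fat group held 4 male Wistar rats fed the high-fat diet Quick fat over 8 weeks, and the normal group held 4 male Wistar rats fed CE-2. All rats were 7 weeks old when bought, ate CE-2 during 1 week of acclimation, and were bled on day 56 after an overnight fast. The diets were assigned to 10 rats each, and the 4 arrays of a group are labelled biological replicates. Rats that also received mulberry leaf powder were not analysed here.

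Il6, Tnf and the interleukin 1 cytokines are released by monocytes, macrophages and other cells when they sense microbes or injury. They act through receptors on white cells, vessel walls and liver, where they raise adhesion molecules and acute phase proteins. Il1b and Il18 are made as inactive precursors that caspase 1 cuts inside the inflammasome, and Il10 restrains the production of the others. In obesity these cytokines are best known from adipose tissue, where macrophages make much of the Tnf and Il6.

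The regulatory DNA of the group is shown for the cytokine with the lowest signal, Il6, and for both cytokines whose signal lay above the median of the arrays, Il1b and Tnf. Each sequence is the 250 bases before the gene's start in RefSeq, assembly GRCr8, 5′ to 3′ on the gene's strand. Il6 is from chr4:5894576-5894825 on the minus strand, Il1b from chr3:137036582-137036831 on the minus strand and Tnf from chr20:3626435-3626684 on the plus strand. Capitals mark matches on either strand to 3 motifs, the core of an NF-kB element (GGGANNTTC), the cyclic AMP response element (TGACGTCA) and the TATA box (TATAAA).
Il6: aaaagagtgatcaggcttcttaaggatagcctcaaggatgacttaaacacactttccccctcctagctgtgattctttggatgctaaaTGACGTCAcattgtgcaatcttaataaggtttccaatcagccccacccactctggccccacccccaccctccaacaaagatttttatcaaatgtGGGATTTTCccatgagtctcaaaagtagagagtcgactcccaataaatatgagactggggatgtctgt
Il1b: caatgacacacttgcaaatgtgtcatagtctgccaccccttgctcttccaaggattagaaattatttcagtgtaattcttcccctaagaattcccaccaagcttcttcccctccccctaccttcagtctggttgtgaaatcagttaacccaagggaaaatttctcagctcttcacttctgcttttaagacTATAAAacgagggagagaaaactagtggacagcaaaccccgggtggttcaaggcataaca
Tnf: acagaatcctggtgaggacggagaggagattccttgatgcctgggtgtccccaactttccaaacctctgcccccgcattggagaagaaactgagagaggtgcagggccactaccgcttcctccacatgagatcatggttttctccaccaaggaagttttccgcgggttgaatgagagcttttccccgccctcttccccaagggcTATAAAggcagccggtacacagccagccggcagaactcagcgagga

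The NF-kB core was found in the Il6 sequence, 68 to 60 bases before the start, and so was the cyclic AMP element, 162 to 155 bases before it. Among all 33469 promoters of the RefSeq table, 3.36% held the NF-kB core and 1.59% the cyclic AMP element in the same window. Neither was found in the windows of Il1a, Il1b, Tnf or Il18, and Il10 had no promoter sequence in the source used. Other forms of the NF-kB element and DNA outside the windows were not searched. A TATA box lay 60 to 55 bases before the start of Il1b and 46 to 41 bases before that of Tnf, and Il1a held 2 matches. The TATA letters were found in 12.9% of all promoters. These matches describe the letters of the windows only, and no promoter was measured in these rats.

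The deposited levels are on a log2 scale, but most probe sets differed very little between arrays. The largest range of any probe set over the arrays was 0.408 log2 units. The SD between arrays had a median of 6.07 millionths of a log2 unit over all probe sets, so differences are given in millionths and are not log2 ratios of RNA amount. They are also divided by the probe set's SD pooled within the 2 diet groups, and the quotient is given in within-group SDs. How far the scale is compressed can differ between probe sets. Levels are given for the brightest listed genes of each blood cell type. The red cell genes Hbb and Alas2 had levels of 15.09 and 13.68, the monocyte gene Lyz2 13.22, the platelet gene Pf4 12.82, the neutrophil gene S100a9 11.59 and the T cell gene Cd3g 10.29. The B cell gene Ms4a1 was at 9.10 and the cytotoxic cell gene Prf1 at 8.71. Of 7 neutrophil genes measured, Mmp9, Cxcr2, Camp and Mmp8 were below the median of the arrays. So were Ccr2 and Cd163 among 8 monocyte genes and Ncr1 among 7 natural killer genes. All measured red cell, T cell, B cell and platelet genes were above it.

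Among the cytokines, Il1b alone had a signal above the 75th percentile of the arrays. The 25th percentile of each array was 6.22, the median 6.60 and the 75th percentile 7.13. Il1b had a mean level of 9.34 and lay at the 98.0th percentile of its array in both diet groups. The brighter Tnf probe set, at 6.83, lay at the 62.6th percentile. The other 6 probe sets were below the median of every array. Il1a stood at 6.49 (42.9th percentile) with its brighter probe set, Il10 at 6.37 (35.2nd) and Il18 at 6.33 (32.5th). The dimmer Tnf probe set stood at 6.17 (22.1st percentile), the dimmer Il1a probe set at 6.07 (15.9th) and Il6 at 5.87 (7.33rd), all under the 25th percentile. Each of the 8 probe sets kept its place between the quartiles on all 8 arrays. As levels differed so little between arrays, the deposited scale fixed this in advance. Probe sets differ in how strongly they bind their target, so this is an order of signals and not of RNA amounts.

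Genes known mainly from tissues outside the blood were set beside the cytokines. Of 30 such genes listed, from liver, pancreas, brain, heart, kidney and other organs, 28 were measured. Their levels were between 5.78 and 8.58 with a median of 6.58, and 2 of them, Mbp and Ins1, were above the 75th percentile of the arrays. Il1b was brighter than all 28. For the brighter Tnf probe set, 4 of the 28 were brighter. For the brighter Il1a probe set 18 were brighter, for Il10 20 and for Il18 21. The dimmer Tnf probe set had 24 of them above it, the dimmer Il1a probe set 26 and Il6 27. All cytokine signals but that of Il1b thus lay within the range of these genes. No detection call was used.

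**Figure D1:**
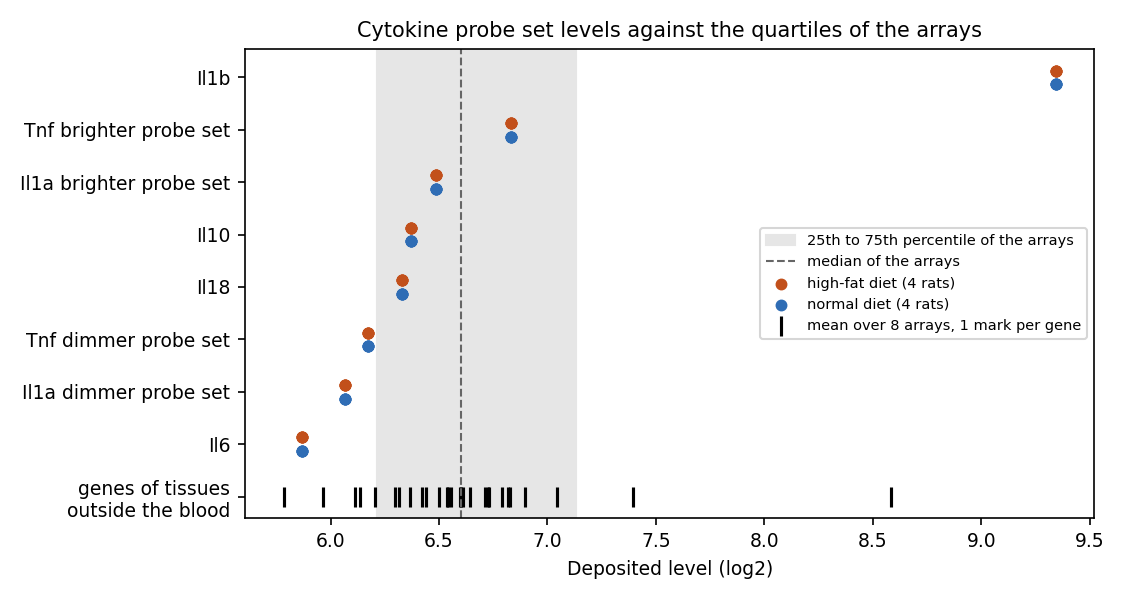
Deposited level (log2) of each cytokine probe set in the 4 high-fat and 4 normal rats, with the quartiles of the arrays as a grey band and the mean levels of 28 genes of tissues outside the blood as black marks. Il1b at 9.34 is to the right of all 28 marks, and Il6 at 5.87 is below the 25th percentile of 6.22. The 4 points of a group lie on top of each other at this scale.

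No cytokine passed the test of diet. With limma 0 of the 8 probe sets reached an adjusted p of 0.05, as did 0% of all 31042 probe sets tested, and each of the 8 had an adjusted p of 1. At an unadjusted p under 0.05 there was 1 of the 8, Il6, against 2.25% of all probe sets. The 4 high-fat values were entirely apart from the 4 normal values in 1 of the 8, again Il6, against 1.44% of all probe sets. Of the 8 differences, 4 were positive (both Il1a probe sets, Il10 and Il18) and 4 negative (Il6, Il1b and both Tnf probe sets). Over all probe sets 46.6% were positive. The p-values set each difference against the spread between the labelled replicates, which limma moderates with the spread of all probe sets. In whole blood, fewer cells of a type and less RNA per cell cannot be told apart.

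Il6, which drives the acute phase response of the liver and the growth of B cells, had the largest scaled difference of the group. Relative to the mean of the 8 arrays, its level in the high-fat group was -5.46, -5.50, -1.66 and -7.52 millionths in replicates 1 to 4. In the normal group it was 5.42, 1.80, 7.22 and 5.70 millionths. All 4 high-fat values were below all 4 normal ones, and the gap between the nearest of them was 3.45 millionths. The group means were -5.03 ± 2.45 millionths in the high-fat group and 5.03 ± 2.30 in the normal group (SD, n = 4 each). The difference by limma was -10.1 ± 1.76 millionths (SE), or -4.24 within-group SDs, with a 95% interval of -14.2 to -5.89 before adjustment, an unadjusted p of 7.96e-04 and an adjusted p of 1. Its p was the fifth smallest of all probe sets. In deposited units the difference was larger than that of 84.8% of all probe sets, and the within-group SD of 2.38 millionths was at the 21.0th percentile. With each array centred on its median the difference was -76.0 millionths, or -1.36 within-group SDs, with an unadjusted p of 0.0870 by limma. Quantile normalization on top put it at -3.72 millionths, or -1.22 within-group SDs, with an unadjusted p of 0.124 by limma. Under both scalings the unadjusted p was no longer under 0.05, but neither can decide on a difference this small. Centring adds the spread of the array medians, which was 217 millionths from lowest to highest. Quantile normalization keeps only the rank, which for Il6 moved between percentiles 7.332 and 7.335.

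The mean scaled level of the red cell genes was also apart between the diets. Of 7 measured, 6 had a positive high-fat minus normal difference, against 46.6% of all probe sets, and 1 (Hbb) was equal within 1e-12 on the log2 scale. Hemgn, a nuclear protein gene of red cell precursors, at 2.63 within-group SDs, was the 1 gene of the 7 with its groups apart, against 1.44% of all probe sets. With limma 0 of the 7 reached an adjusted p of 0.05, and 3 (Hemgn, Slc4a1 and Klf1) had an unadjusted p under 0.05, against 2.25% of all probe sets. These 3 were named after their values were seen. Each gene was scaled over the 8 arrays to mean 0 and SD 1. This gave Hbb, whose groups were equal, the same weight as the others. The average of all 7 genes, Hbb included, was then taken. It was between -0.193 and 1.07 in the high-fat rats, against -0.587 to -0.331 in the normal rats. The brightest of the 7, Hbb and Alas2, had overlapping groups, and Alas2 stood at 0.328 within-group SDs. Every other cell type list had overlapping scaled means. Positive differences were found in 7 of 7 natural killer, 8 of 8 monocyte and 5 of 7 neutrophil genes. They were found in 1 of 8 T cell, 1 of 5 B cell and 2 of 7 platelet genes. Without high-fat replicate 4 the counts were 4 for monocytes and 6 for natural killer cells. Leaving out 1 rat at a time gave 1 to 4 for T cells, 0 to 4 for B cells, 1 to 5 for platelets and 3 to 7 for neutrophils. The part of red cell RNA in the Il6 values was not tested. The Il6 difference was measured at a level of 5.87, under that of 27 of the 28 genes of other tissues.

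**Figure D2:**
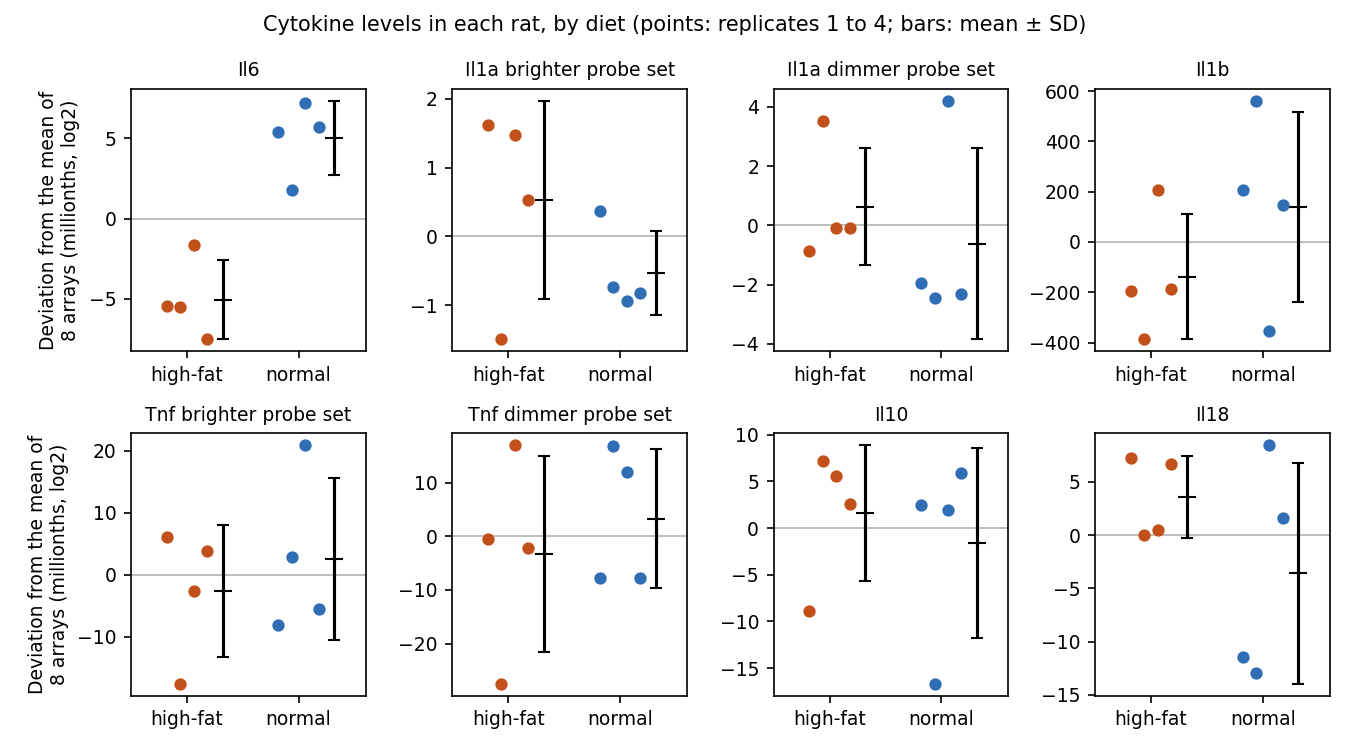
Level of each cytokine probe set in each rat as the deviation from the mean of the 8 arrays (millionths of a log2 unit, own axis per panel), high-fat left and normal right, with the group mean ± SD in black. The groups are apart for Il6 (high-fat -7.52 to -1.66, normal 1.80 to 7.22) and overlap in the 7 other panels.

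Il1b, the secreted interleukin 1 of monocytes and neutrophils, had the brightest signal of the group and varied most between rats in deposited units. Its level in the high-fat group was -193, -385, 209 and -186 millionths from the mean in replicates 1 to 4. In the normal group it was 205, 561, -356 and 145 millionths. The groups overlapped, with high-fat replicate 2 and normal replicate 3 lowest and normal replicate 2 highest. The difference was -278 ± 213 millionths (limma, SE), or -0.868 within-group SDs, with a 95% interval of -784 to 229 and an adjusted p of 1. Leaving out normal replicate 2 gave -137 millionths and leaving out normal replicate 3 gave -443. The unadjusted p by limma was 0.234 with all rats and 0.0416 without normal replicate 3. With each array centred on its median it was 0.0323. Neither of the lower values passed after adjustment. Its within-group SD of 319.8 millionths was above that of 98.7% of all probe sets, and above that of 90.1% of the 263 probe sets within 0.25 of its level.

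Neutrophil genes were set beside Il1b after its values were seen. The scaled mean level of the 7 measured genes was 0.0939, -0.981, 0.591 and 0.715 in high-fat replicates 1 to 4. It was -0.289, 0.800, -1.03 and 0.0974 in normal replicates 1 to 4. High-fat replicate 2 and normal replicate 3 were the lowest rats on both measures and normal replicate 2 the highest. Of the 8 rats, 5 were on the same side of the mean on both measures, and 3 (high-fat replicates 1 and 4 and normal replicate 1) were on opposite sides. The 8 monocyte genes gave another order, with high-fat replicate 4 at 1.83 and the 7 other rats between -0.497 and 0.105. The part of neutrophil or monocyte RNA in the Il1b values was not tested.

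**Figure D3:**
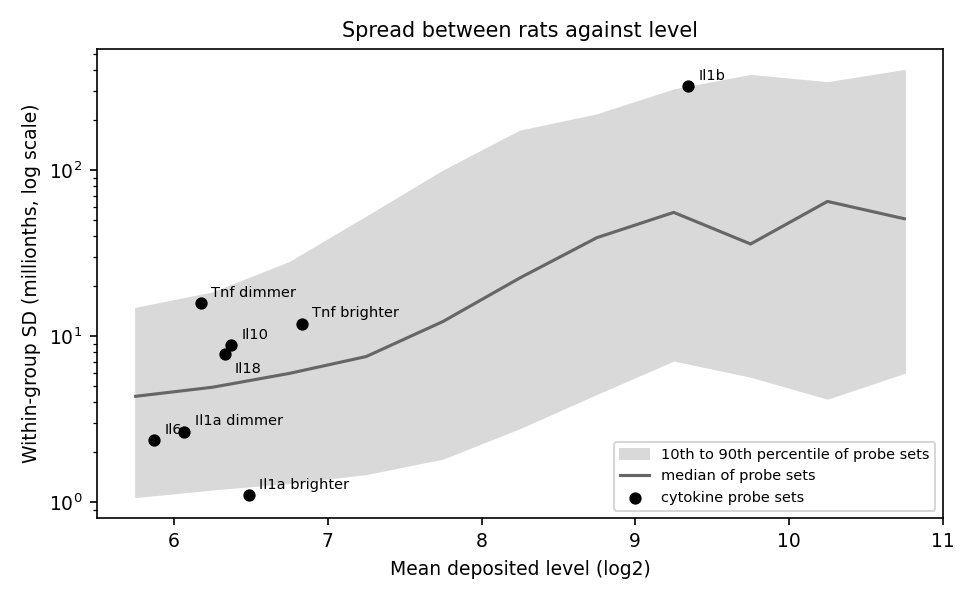
Within-group SD (millionths of a log2 unit, log axis) against mean level for the 8 cytokine probe sets, over the median and the 10th to 90th percentile of all probe sets in bins of level. Il1b, at 319.8 millionths, is at the upper edge of the band, and the brighter Il1a probe set, at 1.10 millionths, is just under its lower edge.

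Il1a, the cell-bound interleukin 1 that shares its receptor with Il1b, had overlapping groups with both probe sets. The within-group SD was 1.10 millionths for the brighter probe set, the smallest of the 8, and 2.67 for the dimmer, against 2.38 for Il6. The brighter probe set had 1.62, -1.50, 1.47 and 0.526 millionths from the mean in high-fat replicates 1 to 4, against 0.372, -0.728, -0.937 and -0.828 in normal replicates 1 to 4. High-fat replicate 2 was the lowest rat and the other high-fat rats were above every normal rat. The difference was 1.06 ± 1.06 millionths (limma, SE), with a 95% interval of -1.46 to 3.59 and an adjusted p of 1. It was 0.697 without high-fat replicate 1 and 1.74 without high-fat replicate 2. The dimmer probe set differed by 1.25 ± 1.94 millionths (adjusted p of 1 by limma), and leaving out 1 rat gave 0.285 (high-fat replicate 2) to 2.86 (normal replicate 3). Across the 8 arrays the probe sets of this gene did not track each other (Pearson r = -0.372, a description), with 2 of 8 arrays on the same side of their means.

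Tnf, which binds receptors on most cells and switches on NF-kB, had overlapping groups with both probe sets. The brighter one had 6.12, -17.5, -2.65 and 3.82 millionths from the mean in high-fat replicates 1 to 4, against -8.07, 2.95, 20.9 and -5.57 in normal replicates 1 to 4. High-fat replicate 2 was lowest and normal replicate 3 highest. The difference was -5.12 ± 7.99 millionths (limma, SE; 95% interval -24.1 to 13.9; adjusted p of 1), and it was 0.999 without normal replicate 3. The dimmer probe set ran from -27.5 to 17.0 millionths in the high-fat group, against -7.86 to 16.8 in the normal group, with high-fat replicate 2 again lowest. Its difference was -6.54 ± 10.6 millionths (limma, SE; adjusted p of 1), and leaving out high-fat replicate 2 gave 1.54. The probe sets of Tnf had a Pearson r of 0.692 over the 8 arrays, given as a description.

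Il10, the cytokine that dampens macrophages, had -8.93, 7.24, 5.57 and 2.54 millionths from the mean in high-fat replicates 1 to 4. The normal replicates 1 to 4 had 2.49, -16.7, 1.90 and 5.86. Apart from high-fat replicate 1 and normal replicate 2, which were low, the other 6 rats lay close together and the groups overlapped. The difference was 3.21 ± 5.95 millionths (limma, SE; 95% interval -10.9 to 17.4; adjusted p of 1), and it was -1.81 without normal replicate 2.

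Il18, which drives interferon gamma release from lymphocytes, had 7.24, 0.0266, 0.459 and 6.63 millionths from the mean in high-fat replicates 1 to 4, against -11.5, -13.0, 8.45 and 1.65 in normal replicates 1 to 4. Normal replicates 1 and 2 were the lowest rats, but normal replicate 3 was the highest, so the groups overlapped. The difference was 7.18 ± 5.26 millionths (limma, SE; 95% interval -5.35 to 19.7; adjusted p of 1). It was 4.05 without normal replicate 2 and 11.2 without normal replicate 3. The unadjusted p by limma was 0.216 with all rats and 0.0410 without normal replicate 3, which did not pass after adjustment. For Il1a, Il10 and Il18 the sign depended on the scaling, since the group means of the array medians differed by 66.0 millionths, high-fat above normal. Without high-fat replicate 4 they differed by 31.3 millionths. Centring each array on its median made all 8 differences negative, with all 8 arrays and without any 1 of them, an alternative chosen after seeing the data.

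**Figure D4:**
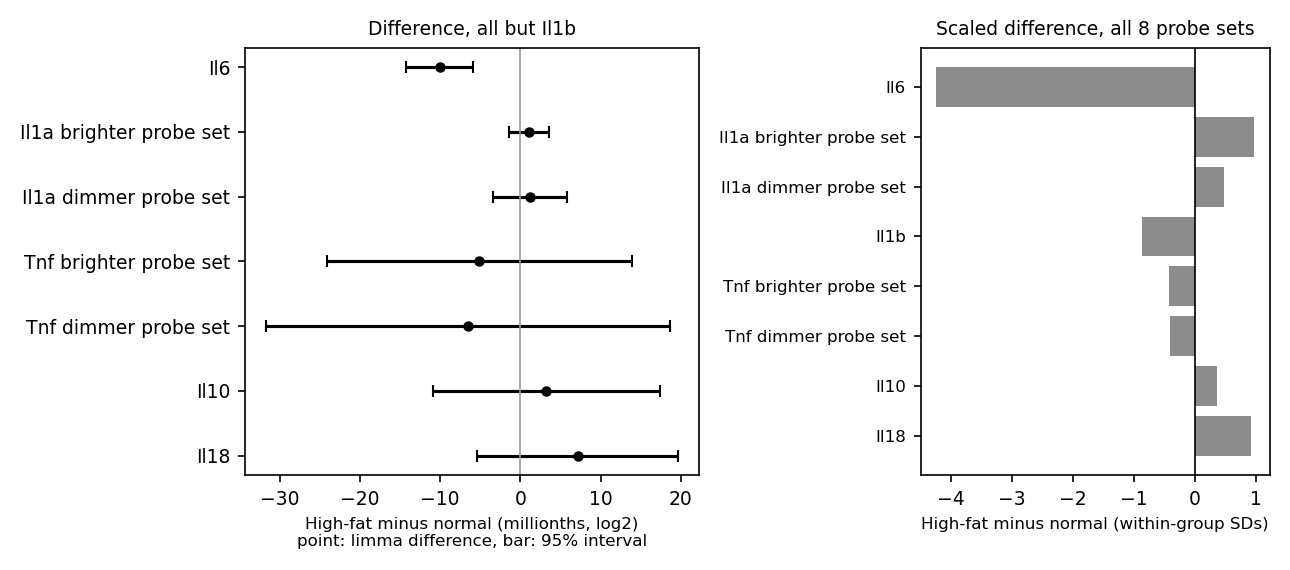
Left, high-fat minus normal difference (millionths of a log2 unit) with its unadjusted 95% limma interval for all probe sets but Il1b, whose difference of -278 is off this scale. Right, the same difference in within-group SDs for all 8. Il6, at -4.24 within-group SDs, is apart from the others, which lie between -0.868 and 0.962.

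None of the listed genes through which these cytokines are cut, sensed and answered, and none of the listed other cytokines, passed the test of diet. Over 6 lists, 97 of 110 genes were measured, of which 50 had a positive and 47 a negative difference, where 46.6% of all probe sets were positive. With limma 0 reached an adjusted p of 0.05, and 0 had an unadjusted p under 0.05, against 2.25% of all probe sets. The median difference over all probe sets was -0.0479 within-group SDs.

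Of 11 receptor genes 9 were measured, 5 positive and 4 negative, with a median of 0.0604 within-group SDs. The Il10 receptor chains Il10rb and Il10ra had levels of 8.16 and 8.08 and stood at 0.197 and 0.491 within-group SDs. Il6r, the binding chain for Il6, had a level of 7.79 and stood at -0.897. Il1r2, a decoy receptor for interleukin 1, had a level of 7.28 and stood at -0.314, and Il1rap, the accessory chain that Il1a and Il1b need for signalling, had 6.26 and stood at -1.43. Il6st, the signalling chain of the Il6 receptor, had a level of 7.27. The receptor genes thus gave signals above the 75th percentile of the arrays in 6 of 9 cases, against 1 of 6 for the cytokines' brighter probe sets.

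Of 11 genes for cytokine maturation and release 9 were measured, 6 positive and 3 negative, with a median of 0.165 within-group SDs. Casp1, which cuts the precursors of Il1b and Il18, had a level of 7.83 and stood at 0.286. Pycard, the inflammasome adaptor, had 8.19 and stood at 0.238. Adam17, the protease that sheds Tnf from the cell surface, had 7.84 and stood at 0.225, and its partner Rhbdf2 had 7.87 and stood at -0.00323. The calpain Capn2 had 8.24 and stood at 0.00904, and the inflammatory caspase Casp4 had 7.27 and stood at 0.405.

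The signalling list had 20 of 21 genes measured, 12 positive and 8 negative, with a median of 0.127 within-group SDs. The kinase Jak1, used by the receptors of Il6 and Il10, had a level of 10.57 and stood at 0.0111. The interleukin 1 receptor kinase Irak1 had 9.51 and stood at 0.277, the phosphatase Ptpn11 8.85 and 0.466, and the kinase Map3k7 8.84 and -0.639. The smallest p-values were those of Traf2, an adaptor of Tnf receptors, at -0.810, and Ikbkb, the kinase that releases NF-kB, at 0.672.

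Inhibitors had 14 of 15 genes measured, 8 positive and 6 negative, with a median of 0.0923 within-group SDs. Il1rn, the natural antagonist of the interleukin 1 receptor, had a level of 7.04 and stood at 1.25. Zfp36, which destabilizes Tnf mRNA, had 7.53 and stood at 0.734. The NF-kB inhibitors Nfkbia and Nfkbib had levels of 8.11 and 8.14 and stood at 0.468 and -0.598. Tollip and Tnip1, which restrain the same pathway, had 7.90 and 7.86 and stood at -0.142 and 0.384.

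Target genes had 21 of 22 measured, 11 positive and 10 negative, with a median of 0.00452 within-group SDs. Sod2, a mitochondrial superoxide dismutase raised by Tnf, had a level of 9.07 and stood at 0.132. The survival gene Mcl1 had 8.77 and stood at -0.120, the kinase gene Pim1 8.39 and -0.737, and the transcription factor gene Cebpb 7.98 and 0.431. The acute phase gene Hp had 7.73 and stood at 0.954, and the chemokine gene Cxcl10 had 6.46 and stood at 1.27. Of the 21 targets, 5 were below the 25th percentile of the arrays.

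Other cytokines, 24 of 30 measured, had 8 positive and 16 negative differences and a median of -0.343 within-group SDs. Most signals were below the median of the arrays. Of the 24, 9 were above the median of the arrays and 8 below the 25th percentile. The brightest were Ltb and Csf1, at 8.79 each, which stood at -1.58 and -1.24, then Il16 at 7.45 (-0.383) and Osm at 7.18 (0.0681). Lta, the Tnf relative encoded beside Tnf, had a level of 6.17 and stood at -1.66, with all 4 high-fat values below all 4 normal values and an adjusted p of 1 by limma. It was the 1 gene of the 97 whose groups were apart, a share near the 1.44% of all probe sets.

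The counts of these lists moved with single rats. Without high-fat replicate 4 the positive members were 1 of 9 for receptors, 2 of 9 for maturation and release, 5 of 14 for inhibitors and 7 of 21 for targets. Without normal replicate 3 they were 2 of 9 for receptors, 2 of 9 for maturation and release and 4 of 20 for signalling. Without high-fat replicate 3 they were 5 of 24 for other cytokines.

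**Figure D5:**
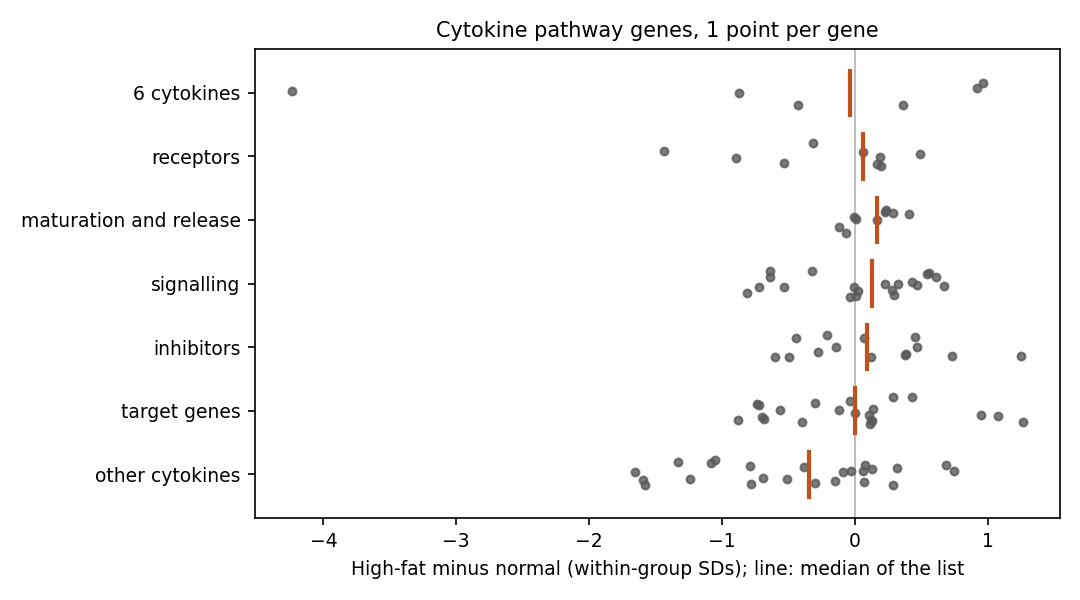
High-fat minus normal difference in within-group SDs for the 6 cytokines (brighter probe set) and the measured genes of 6 pathway lists, 1 point per gene, with the median of each list as a line. The medians of the pathway lists run from -0.343 (other cytokines) to 0.165 (maturation and release), and Il6 at -4.24 lies outside the range of the other points.

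The genes whose values followed each cytokine most closely over the 8 arrays were ranked by Pearson r among 20826 named probe sets, as a description. For Il6 they were Wdfy3 (r = 0.962), Col10a1 (0.940) and Ube2j1 (0.938), which stood at -3.09, -3.92 and -2.65 within-group SDs. The r spans both diets, so a gene that follows Il6 closely also differs by diet. For Il1b they were Fam204a (0.971), Gtf3c1 (0.947) and Antxr2 (0.944). For Tnf they were Slc7a1 (0.983), Samd14 (0.980) and Cdhr2 (0.970), and for Il18 Syt10 (0.978), Elmo2 (0.961) and Mical2 (0.953). For Il10 they were Nek9 (0.949), Lrrn4 (0.946) and Efcab2 (0.940), and for Il1a Col17a1 (0.935), Rab5b (0.934) and Mmadhc (0.930). None of these 18 genes is a member of the pathway or cell type lists. The 8 points of each r share the arrays and the unknown processing of the deposited values. With 20826 probe sets ranked on 8 points, a high r can arise by chance, and its chance level was not worked out.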

How the data were processed

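Per the labels' protocols, total RNA of whole blood was column-purified and 200 ng were amplified and biotin-labelled for Affymetrix 3' arrays. The values are the log2 levels the authors deposited. Their background correction, normalization and summary of probes are not given in the sources used here. Gene names came from the platform annotation, and all 8 cytokine probe sets matched the GRCr8 gene table by gene number. Of 31099 probe sets, 57 controls were left out. The other 31042 were fitted in R 4.3.3 with limma 3.58.1 (functions lmFit and eBayes), high-fat minus normal without covariates. P-values were two-sided and adjusted over all 31042 by Benjamini-Hochberg, and 0.05 was the threshold. The exact permutation test over 4 against 4 rats cannot go below p = 0.0286. A listed gene was represented by its probe set with the highest mean. From each pathway list, the 4 brightest genes and the 2 with the smallest p were named, and from each cell type list the 2 brightest. Il6st, Mmp9, Cxcr2, Camp, Mmp8, Ccr2, Cd163 and Ncr1 were added after their values were seen. The cytokines and lists were chosen with earlier results of these data known. The fit was checked on simulated data with shifts of far more within-group SDs than any cytokine difference here. That check does not show the power at the differences reported. Promoter sequences were read from RefSeq. The number of arrays limits the precision, and no 2 arrays were identical. Alternatives were median centring, further quantile normalization, filters on dim probe sets, a trended and robust eBayes, weights per array, a block on the replicate number, each rat left out in turn, the exact test, scaled differences, the mean over probe sets and percentiles among named probe sets.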

Additional observations from a re-analysis of the deposited data

Results flagged for a closer look

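The normal group of the brighter Il1a probe set had 1 rat far from the other 3. Normal replicate 1 was at 0.372 millionths from the mean of the 8 arrays and the others were between -0.937 and -0.728, so that its gap was 0.840 of the group's range, above the 95% critical value of Dixon's test for 4 samples. In the dimmer Il1a probe set the rat apart was normal replicate 3, at 4.20 millionths, with a gap of 0.920 of the range. These were 2 of 16 combinations of probe set and group, and chance flags about 1 in 20.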

How the results depend on the processing

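No cytokine probe set reached an adjusted p of 0.05 under any limma alternative, with adjusted p from 0.191 to 1. The number of probe sets past the threshold was 0 in all alternatives except quantile normalization on top, which gave 32, none of them a cytokine, and put 5 of the 8 cytokine differences at 0. Centring each array on its median reversed the sign of 4 differences, to -64.9 and -64.7 millionths for the brighter and dimmer Il1a probe sets, -62.7 for Il10 and -58.8 for Il18, because it moves every difference by the same amount. The exact permutation test, unadjusted, gave Il6 its smallest possible p of 0.0286 at the same difference of -10.1 millionths. Leaving out 1 rat gave -8.67 to 0.999 millionths for the brighter Tnf probe set, -13.3 to 1.54 for the dimmer, -1.81 to 6.72 for Il10 and -11.2 to -9.24 for Il6. With the replicate number as a block the Il6 difference was -10.1 millionths (adjusted p of 1 by limma) and 0 probe sets passed. At an unadjusted limma p under 0.05 there were 1111 probe sets with the block, against 699 without it. Same-numbered rats had correlations of deviations from -0.121 to 0.355, over 0.1 in 3 of 4 pairs. Rats with different numbers had -0.285 to 0.192. These more numerous pairs were over 0.1 only at 0.149, 0.159 and 0.192. These values do not decide whether the numbers are pairs, so the block was kept as an alternative only. The filters on dim probe sets removed Il6. Among named probe sets Il6 was at the 5.72nd percentile and Il1b at the 97.7th.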
